A study of Mus musculus with 4 samples.

Results

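The tripartite motif (TRIM) family was examined in resting CD4 T cells that lacked the Ifitm genes. A member was a gene with the symbol Trim followed by a number, with or without a closing letter, that a probe set of the array named alone. There were 58 such genes among the 19937 genes named in that way, each with 1 probe set. The family was measured on 4 Affymetrix Mouse Gene 1.0 ST arrays. WT arrays (n = 2) and IfitmF-/- arrays (n = 2) held RNA of CD4 T cells taken from the spleens of mice aged 6 to 8 weeks, by negative selection and without stimulation. IfitmF-/- mice lack the whole Ifitm gene family in every cell and were kept on a C57BL/6 background, and, per the study, each array pooled the cells of a pair of mice. The comparison asks which TRIM genes are expressed at another level when CD4 T cells, and all other cells of the mouse, lack the Ifitm genes.

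TRIM proteins carry a RING domain, 1 or more B-box domains and a coiled coil, followed by a C-terminal part that sets the target. Most act as E3 ubiquitin ligases, which pass ubiquitin from a conjugating enzyme to a substrate. Those with a PRY-SPRY end include restriction factors that bind incoming viral capsids, and many are induced by interferon. Others add ubiquitin chains to the sensors and adaptors of innate immunity, and the TIF1 group (Trim24, Trim28, Trim33 and Trim66) acts in the nucleus on chromatin.

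All values below are log2 RMA intensities, and a change is the mean of the IfitmF-/- arrays minus the mean of the WT arrays on that scale, with its standard error (SE) from limma. A gene was called when its p-value, adjusted by Benjamini-Hochberg over all 34760 probe sets, was under 0.05. The arrays of one genotype correlated at 0.993 (WT) and 0.991 (IfitmF-/-) over all probe sets, and arrays of different genotype at 0.976 to 0.979. Ifitm1, Ifitm2 and Ifitm3 were each called lower in IfitmF-/- cells, with changes of -1.72, -3.26 and -4.60. Xist was called lower and 3 Y-linked genes were called higher in IfitmF-/- cells, so sex and genotype cannot be told apart in any comparison here. This holds for the members too, of which 0 lie on the X or Y chromosome. Of 6 CD4 T cell markers measured, 3 were called higher (Cd3d, Cd3g and Il7r, by 0.46 to 0.59). Cd4 (0.27, adjusted p = 0.141), Cd5 (0.28, adjusted p = 0.145) and Cd3e (-0.009, adjusted p = 0.962) were not called. The summed linear intensity of the 6 was 17210 and 17550 in WT against 22070 and 21730 in IfitmF-/- cells. The 4 plasma cell markers summed to 6229 and 5037 in WT against 2732 and 2560 in IfitmF-/- cells, with 1 of 4 called lower (Xbp1). Among markers of other cells, the neutrophil gene Retnlg was called higher (1.83) and the natural killer gene Nkg7 lower (-0.89). No other of the 6 neutrophil markers was called, and the median change of the 6 was 0.25. Of the 5 natural killer markers only Nkg7 was called, while 3 were higher with an unadjusted limma p under 0.05. The median change of the 5 was 0.58. The 5 B cell markers, none called, summed to 4306 and 1429 in WT against 1519 and 2377 in IfitmF-/- cells. The 5 myeloid markers, none called, summed to 4060 and 2344 in WT against 2486 and 4954 in IfitmF-/- cells. The 4 platelet markers, none called by limma and 1 with an unadjusted p under 0.05, summed to 3563 and 2320 in WT against 4556 and 10370 in IfitmF-/- cells. The part of these shifts in the values below was not tested, and in RNA of a whole preparation fewer cells of a type and less RNA per cell cannot be told apart.

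Interferon acts on many of its target genes through the interferon-stimulated response element (ISRE), so the promoters of the family were searched for its core letters, GAAA, any 2 bases and GAAA again, on both strands, from 250 bases before to 50 bases after each transcription start. RefSeq promoter sequences (GRCm38.p6) were at hand for 46 of the 58 members, and 8 of these held the letters (17.4%), against 1079 of all 27025 genes in the table (3.99%). They were found in 3 of 6 members called higher in IfitmF-/- cells (Trim12a, Trim12c and Trim21), in 0 of 3 called lower and in 5 of 37 not called (Trim2, Trim26, Trim30a, Trim30d and Trim34a). These counts are a description, and neighbouring genes on chromosome 7 share the stretch in which the letters lie. The windows of the members that the results turn on are shown here, 80 bases each and ending at the last letter of the match, with the matching letters in capitals (TTTC, any 2 bases and TTTC is the same element read on the other strand).
Trim12a, chr7:104315476-104315555, minus strand: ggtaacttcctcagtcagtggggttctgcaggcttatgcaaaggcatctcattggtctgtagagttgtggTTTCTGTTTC
Trim12c, chr7:104353369-104353448, minus strand: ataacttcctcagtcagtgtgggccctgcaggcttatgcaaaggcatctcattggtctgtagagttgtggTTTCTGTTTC
Trim21, chr7:102565454-102565533, minus strand: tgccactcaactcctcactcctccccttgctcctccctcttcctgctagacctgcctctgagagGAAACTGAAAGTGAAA
Trim30d, chr7:104507881-104507960, minus strand: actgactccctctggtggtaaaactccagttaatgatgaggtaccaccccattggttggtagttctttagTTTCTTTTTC
Trim34a, chr7:104244397-104244476, plus strand: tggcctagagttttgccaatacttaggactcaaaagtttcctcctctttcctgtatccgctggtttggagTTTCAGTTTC

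The Trim12a and Trim12c windows were identical over their last 55 bases and at 61 of 80 positions in all, and the window of their neighbour Trim5 was identical to that of Trim12a. Trim30a, at the upstream of its starts, carried the same 80 bases as Trim30d. By contrast, Trim12a and Trim34a shared 27 of 80 positions. The match began 29 bases before the annotated start of Trim12c, 41 before that of Trim30d, 10 after those of Trim12a and Trim34a and 13 after that of Trim21, where overlapping copies of the element form the longer capital run. With matches before the start alone, 4 of 46 members (8.7%) and 3.46% of all genes held the letters.

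TRIM genes changed in both directions. Of the 58 members, 8 were called higher in IfitmF-/- cells (Trim12c, Trim59, Trim56, Trim14, Trim12a, Trim32, Trim21 and Trim33) and 4 were called lower (Trim13, Trim36, Trim39 and Trim25), which is 20.7% of the family against 8.57% of all genes tested. In all genes, 4.96% were called higher and 3.61% lower. The median change over the family was -0.0014, with 29 members above 0 and 29 below, against a median of -0.02 over all genes. Of all genes whose mean over the 4 arrays was at or above the median of all probe sets (6.26), 15.2% were called. There were 34 of the 58 members at or above it, of which 11 were called (32.4%). In 20 members both IfitmF-/- arrays lay above both WT arrays and in 18 below them, while of all genes 27.9% lay above, 30.8% below and 58.7% in either way. An unadjusted limma p under 0.05 was found in 24 members and in 25.8% of all genes. With any 1 array left out, 0 of all 34760 probe sets passed the adjusted threshold in limma, so that design cannot tell the members apart from other genes. Each of the 12 kept its direction and an unadjusted limma p under 0.05 there, with the lone array of a group assumed to vary like the other group.

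**Figure D1:**
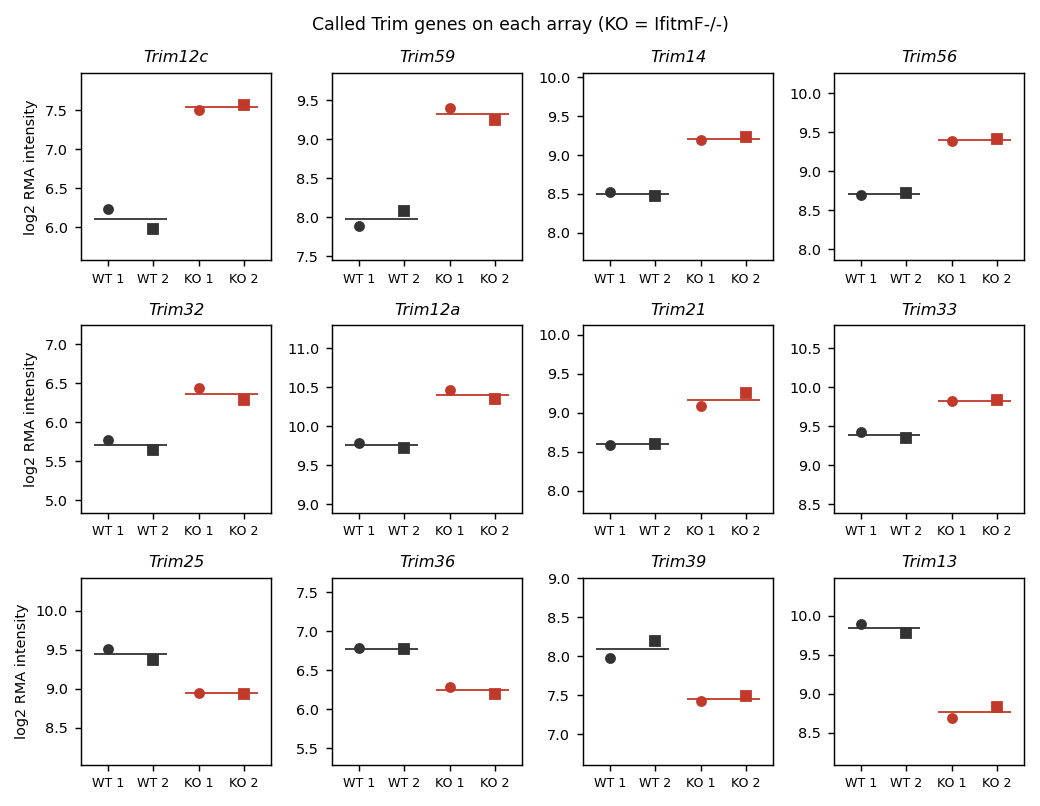
Log2 RMA intensity of the 12 called TRIM genes on each of the 4 arrays, WT in black and IfitmF-/- (KO) in red, with symbols for the replicate, lines at the group means and the same span on every axis. The groups do not overlap in any of the 12, and Trim12c, Trim59 and Trim13 show the widest gaps.

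**Figure D2:**
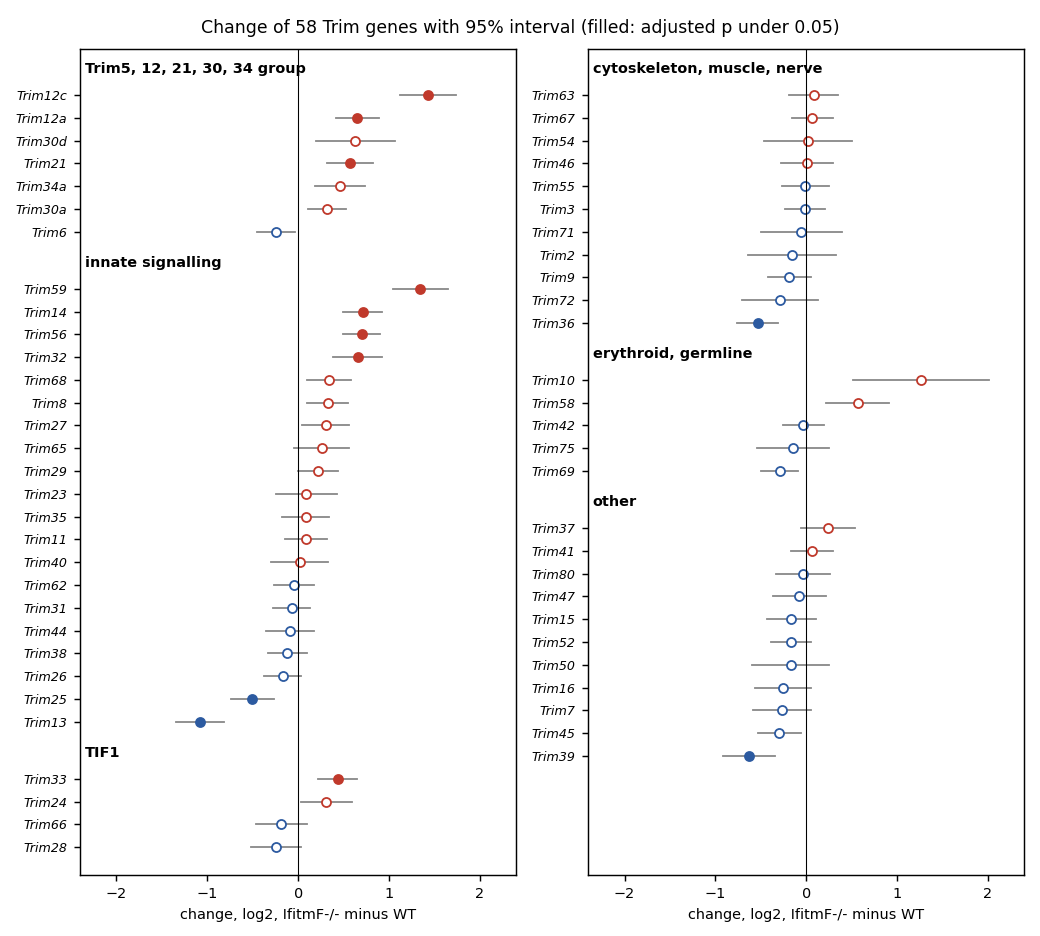
Change on the log2 scale (IfitmF-/- minus WT) with its 95% interval for all 58 members, in their role groups, with filled points for an adjusted p under 0.05. Filled points lie mostly in the innate signalling group and the group labelled by Trim5, Trim12, Trim21, Trim30 and Trim34. The intervals of most cytoskeletal members cover 0.

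The members grouped here as relatives of viral restriction factors were Trim6, Trim12a, Trim12c, Trim21, Trim30a, Trim30d and Trim34a. Of these 7, 3 were called higher in IfitmF-/- cells (Trim12c, Trim12a and Trim21) and 0 lower, against 4.96% and 3.61% of all genes. At or above the median level 3 of 6 were called, against 15.2% of all genes there in either direction. In 6 of the 7 both IfitmF-/- arrays lay above both WT arrays, which 27.9% of all genes did. The median change of the 7 was 0.57. The role groups were chosen with earlier results of these data known, so these shares are a description. Trim12c, a mouse relative of the primate capsid-binding factor TRIM5, was at 6.23 and 5.98 on the WT arrays and at 7.51 and 7.57 on the IfitmF-/- arrays. This was the largest change in the family, at 1.43 ± 0.12 (SE; 2.70-fold, adjusted p = 0.0147). Trim12a, of the same subfamily, was at 9.79 and 9.72 in WT and at 10.46 and 10.34 in IfitmF-/- cells, a change of 0.65 ± 0.09 (SE; 1.57-fold, adjusted p = 0.0303). Trim21, a cytosolic antibody receptor that ubiquitinates antibody-coated virus, was at 8.59 and 8.60 in WT and at 9.08 and 9.25 in IfitmF-/- cells. Its change was 0.57 ± 0.09 (SE; adjusted p = 0.0420), the spread between the IfitmF-/- arrays being wider than that between the WT arrays.

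The remaining 4 members of this group did not pass the test, although Trim34a and Trim30a did under some other settings. Trim34a, the member just outside the threshold, was at 6.23 and 6.04 in WT and at 6.64 and 6.57 in IfitmF-/- cells (change 0.46 ± 0.10 SE, adjusted p = 0.0719), and it passed where dim probe sets were left out, where only probe sets of 1 gene were tested and where the probe sets of a gene were averaged (adjusted p = 0.0404, 0.0386 and 0.0383). Trim30a, an interferon-inducible member that acts on the TAB2 and TAB3 adaptors, was at 10.71 and 10.68 in WT and at 11.00 and 11.03 in IfitmF-/- cells (change 0.32 ± 0.08 SE, adjusted p = 0.0866), and it passed with the trended and robust prior, without dim probe sets and with averaged probe sets (adjusted p = 0.0338, 0.0457 and 0.0492). Replicates of Trim30a lay within a few hundredths of each other. Trim30d was at 7.26 and 7.24 in WT and at 7.67 and 8.10 in IfitmF-/- cells, where the replicates differed widely (change 0.63 ± 0.16 SE, adjusted p = 0.0990). Trim6 was the exception in direction, with values of 5.03 and 4.98 in WT and 4.78 and 4.75 in IfitmF-/- cells, with at most 26.4% of probe sets dimmer than it on any array (adjusted p = 0.149).

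All of these genes but Trim21 sit together. Between Trim6 and Trim30d on chromosome 7 the gene table lists 18 genes, of which 10 are Trim genes (Trim6, Trim34a, Trim5, Trim12a, Trim34b, Trim12c, Trim30b, Trim30c, Trim30a and Trim30d), and 6 of those have a probe set of their own. No other gene of this run had one, so the run cannot be set against unrelated genes inside it. The closest paralogs can share probes, and the probe sets that name several of them, which are no members, give the joint signal. The probe set for Trim5 and Trim12c was at 7.74 and 7.48 in WT and at 9.08 and 8.92 in IfitmF-/- cells (change 1.39, adjusted p = 0.0164). The one for Trim5, Trim12a and Trim12c was at 8.96 and 8.86 in WT and at 9.91 and 9.74 in IfitmF-/- cells (change 0.91, adjusted p = 0.0214). The Trim5 and Trim12 signal was thus higher on 4 probe sets, and the share of Trim5 in it cannot be read from them. The probe set for Trim30b and Gm38525 changed by -0.34 (adjusted p = 0.531), and that for the pseudogene Trim30e-ps1 by 0.29 (adjusted p = 0.137).

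**Figure D3:**
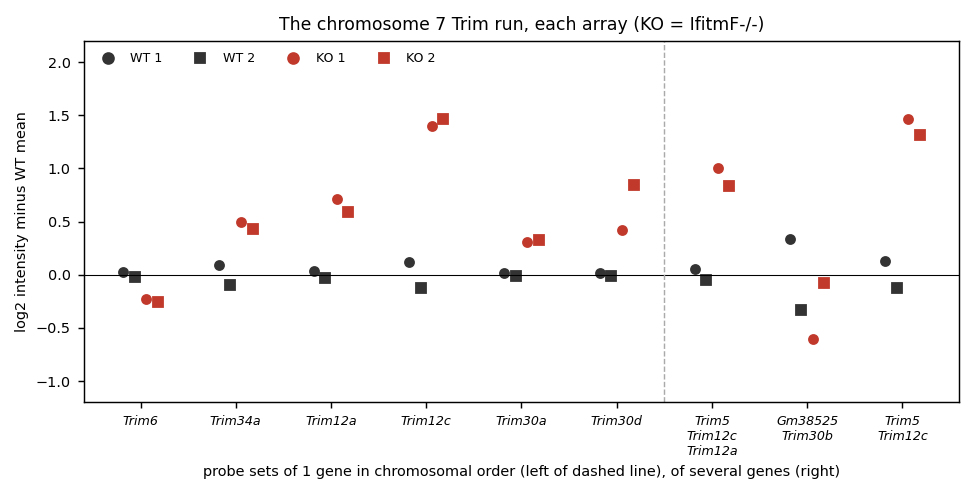
Log2 intensity minus the WT mean of the same probe set on each array, WT in black and IfitmF-/- (KO) in red, for the 6 members of the chromosome 7 run in chromosomal order (not to scale in bases) and, right of the dashed line, for probe sets naming several genes. The IfitmF-/- arrays lie above the WT arrays in Trim34a, Trim12a, Trim12c, Trim30a, Trim30d and both Trim5 probe sets, below them in Trim6, and overlap them at Trim30b.

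Chromosome 7 also carries the deleted Ifitm cluster. The gene table places 501 protein-coding genes between Trim30d and Ifitm3, and Trim21 lies on the other side of the run, 98 protein-coding genes from Trim6. Of the 12 members on chromosome 7, 3 were called (25%), and of the 46 on other chromosomes 9 were called. Over all genes of chromosome 7, 7.5% were called.

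Among the members that act on innate sensors and adaptors, 4 were called higher and 2 lower of 20, with a median change of 0.09. Over all genes 8.57% were called. At or above the median level, where 15 of the 20 lay, 5 of the 15 were called (33.3%). The share of all genes called there was 15.2%. Trim59, a RING protein of the endoplasmic reticulum membrane, was at 7.88 and 8.07 on the WT arrays and at 9.40 and 9.24 on the IfitmF-/- arrays. It was higher by 1.34 ± 0.11 (SE; 2.54-fold, adjusted p = 0.0154). Trim13, which is anchored in the same membrane and acts in protein degradation there, went the other way. It was at 9.89 and 9.79 in WT and at 8.69 and 8.84 in IfitmF-/- cells, a change of -1.08 ± 0.10 (SE; 2.11-fold lower, adjusted p = 0.0164). Of the 12 called members, Trim59 and Trim13 were the 2 that also had a fold over 2 with 250 linear units or more between the lowest and highest array, the thresholds that the study's methods name, applied here to the deposited values, which 1.28% of all genes passed together with the call. Trim12c had the larger fold but a smaller linear range.

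Trim56, Trim14, Trim32 and Trim25 act at the nucleic acid sensing pathways. Trim56, a ligase linked to the cGAS and STING proteins, was at 8.70 and 8.72 in WT and at 9.39 and 9.42 in IfitmF-/- cells (change 0.70 ± 0.08 SE, adjusted p = 0.0213). Trim14, a member without a RING domain that docks on the mitochondrial adaptor MAVS, was at 8.53 and 8.47 in WT and at 9.19 and 9.23 in IfitmF-/- cells (change 0.71 ± 0.08 SE, adjusted p = 0.0218). In both genes the replicates lay far closer together than the genotypes. Trim32, an NHL-repeat ligase that modifies STING and is mutated in a form of limb-girdle muscular dystrophy, was at 5.76 and 5.64 in WT and at 6.44 and 6.28 in IfitmF-/- cells (change 0.66 ± 0.10 SE, adjusted p = 0.0371). Its signal was low, with 40.7% and 38.1% of probe sets dimmer than it on the WT arrays. Trim25, which attaches ubiquitin chains to RIG-I, was the second member of this group called lower, at 9.51 and 9.38 in WT and 8.94 on both IfitmF-/- arrays (change -0.50 ± 0.09 SE, adjusted p = 0.0465). Median centring of the arrays ended that call (adjusted p = 0.0580).

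The other 14 members of the innate group did not pass the test, with changes from -0.17 (Trim26) to 0.34 (Trim68). Groups of arrays overlapped in 6 of them (Trim11, Trim23, Trim35, Trim40, Trim44 and Trim62), while in 58.7% of all genes they did not. Trim8, a regulator of cytokine and NF-kB signalling, was at 8.67 and 8.57 in WT and at 8.93 and 8.96 in IfitmF-/- cells (change 0.33 ± 0.08 SE, adjusted p = 0.0972). Trim27 changed by 0.30 (95% interval 0.05 to 0.56, adjusted p = 0.141). The others were Trim29, Trim31, Trim38 and Trim65, of which Trim29, Trim31 and Trim38 lay below the median level on average. Uncalled members and partners named here and below that are not among the brightest of their group were picked with their values in view.

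The genes with which innate TRIM ligases work also moved in both directions. Of 24 measured sensors, adaptors, kinases and other partners, 5 were called higher and 2 lower, with a median change of 0.09. Over all genes 4.96% were called higher and 3.61% lower. Of genes at or above the median level, 15.2% were called in either direction. Sting1, the adaptor of the DNA sensor cGAS, was at 10.37 and 10.27 in WT and at 11.19 and 11.28 in IfitmF-/- cells (change 0.92 ± 0.09 SE, adjusted p = 0.0180). Irf3, the transcription factor at the end of that pathway, was higher by 0.64 (adjusted p = 0.0265), the kinase adaptor Tab1 by 0.51 (adjusted p = 0.0385), the RNA sensor RIG-I (Ddx58) by 0.50 (adjusted p = 0.0391) and its adaptor Mavs by 0.50 (adjusted p = 0.0415). The autophagy receptor Sqstm1 was lower by a wide margin, at 11.53 and 11.50 in WT and 10.40 and 10.43 in IfitmF-/- cells (change -1.10 ± 0.08 SE, adjusted p = 0.0141). Traf6, a ligase of Toll-like and interleukin-1 receptor signalling, was at 10.09 and 10.24 in WT and at 9.07 on both IfitmF-/- arrays (change -1.10 ± 0.09 SE, adjusted p = 0.0150).

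In the TIF1 group 1 of 4 members was called, against 8.57% of all genes. At or above the median level 1 of 3 was called, against 15.2% of all genes there. Trim33, which ubiquitinates Smad4 and so acts in TGF-beta signalling, was at 9.43 and 9.35 in WT and at 9.82 and 9.84 in IfitmF-/- cells. Its change of 0.44 ± 0.08 (SE) was the smallest among the called members and stood just inside the threshold (adjusted p = 0.0499). Trim24, a reader of histone marks, was at 8.48 and 8.50 in WT and at 8.91 and 8.69 in IfitmF-/- cells (adjusted p = 0.160). Trim28, the co-repressor that zinc finger proteins recruit to chromatin, was at 9.68 and 9.88 in WT and at 9.58 and 9.50 in IfitmF-/- cells (change -0.24, 95% interval -0.52 to 0.03, adjusted p = 0.233). Trim66 was at 5.60 and 5.82 in WT and 5.54 and 5.52 in IfitmF-/- cells (adjusted p = 0.357).

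Of 16 chromatin partners of the TIF1 group, 4 were called higher and 0 lower, against 4.96% and 3.61% of all genes. Of genes at or above the median level, 15.2% were called in either direction. In 12 of the 16 both IfitmF-/- arrays lay above both WT arrays, which 27.9% of all genes did. The median change of these partners was 0.33. The partner lists were chosen with earlier results of these data known, so these shares are a description. Morc3, a chromatin ATPase of nuclear bodies, was at 9.12 and 8.96 in WT and at 10.03 and 9.98 in IfitmF-/- cells (change 0.96 ± 0.09 SE, adjusted p = 0.0187). Atf7ip, which stabilises the histone methyltransferase Setdb1, was higher by 0.63 (adjusted p = 0.0260), the heterochromatin protein Cbx3 by 0.55 (adjusted p = 0.0434) and the deacetylase Hdac1 by 0.50 (adjusted p = 0.0375). Cbx3 had 6 probe sets and Atf7ip and Hdac1 had 2 each, and these values are of the probe set of highest mean. Setdb1 itself changed by 0.38 without a call (adjusted p = 0.112). Where only probe sets of 1 gene were tested, 7 of the 16 were called. Of 14 conjugating enzymes that serve RING ligases, Ube2d1 was higher by 0.86 (adjusted p = 0.0291), Ube2v2, which builds lysine 63 chains with Ube2n, was higher by 0.64 (adjusted p = 0.0346), and Ube2e3 was lower, by -0.48 on the log2 scale (adjusted p = 0.0393). The remaining 11 enzymes were not called, Ube2n among them (change 0.22, adjusted p = 0.285). Thus 3 of the 14 enzymes were called, against 8.57% of all genes and 15.2% of genes at or above the median level. The median change of the 14 was 0.19. Ube2v2 had 2 probe sets, of which that of highest mean was read.

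**Figure D4:**
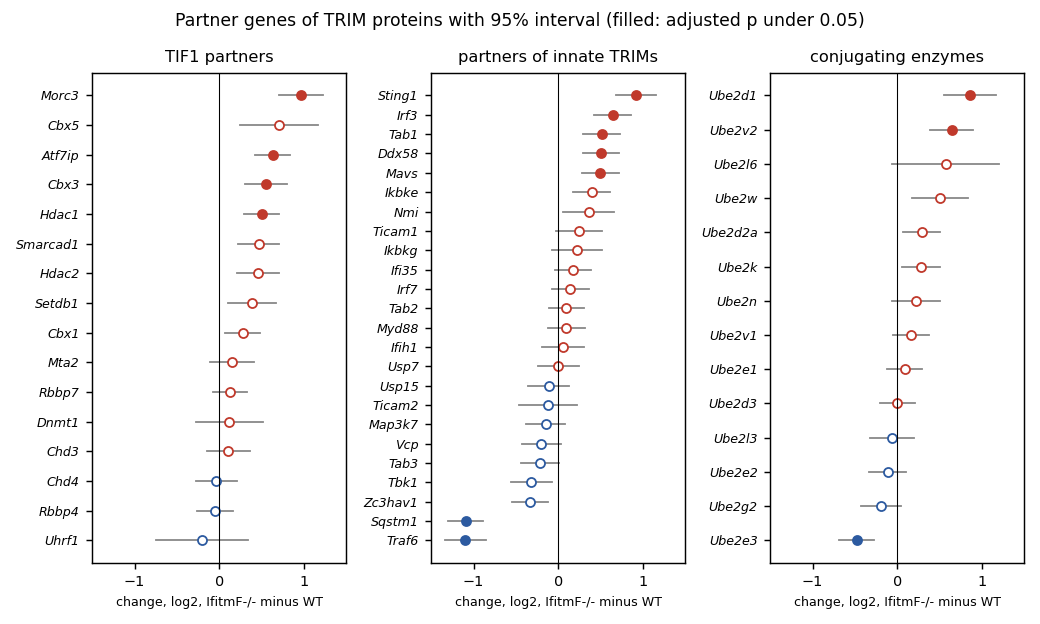
Change on the log2 scale with its 95% interval for chromatin partners of the TIF1 group, partners of innate TRIM ligases and ubiquitin-conjugating enzymes, filled where the adjusted p was under 0.05. In the TIF1 panel the called genes all lie above 0, and in the innate panel Sqstm1 and Traf6 stand far to the left.

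Of 11 members of the cytoskeleton, muscle and nerve, Trim36 was called lower and the others were not called. That is 9.09% of the group, near the 8.57% of all genes. Trim36, a RING protein bound to microtubules, was at 6.79 and 6.77 in WT and at 6.29 and 6.19 in IfitmF-/- cells (change -0.54 ± 0.08 SE, adjusted p = 0.0376). The arrays of the 2 genotypes overlapped in 8 of the 11, while in 58.7% of all genes they did not. Trim3, a neuronal NHL-repeat protein, changed by -0.01 (95% interval -0.23 to 0.21), Trim67 by 0.07 and Trim54 by 0.02. Trim2, Trim9, Trim46, Trim55, Trim63, Trim71 and Trim72 were all dimmer than the median probe set, with changes from -0.29 to 0.08.

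Among 11 members of other functions, Trim39 was called, which is 9.09% of them and near the 8.57% of all genes. Trim39, a ligase of cell cycle and apoptosis regulators, was at 7.98 and 8.20 in WT and at 7.42 and 7.49 in IfitmF-/- cells (change -0.63 ± 0.11 SE, adjusted p = 0.0435). Trim37, a ligase of centrosome and peroxisome proteins, was at 7.63 and 7.60 in WT and at 7.73 and 7.97 in IfitmF-/- cells (adjusted p = 0.274), and Trim41 and Trim47 overlapped between genotypes (changes 0.06 and -0.08). Trim7, Trim15, Trim16, Trim45, Trim50, Trim52 and Trim80 were dim, with changes from -0.30 to -0.04. Of 6 proteins of the family that carry other names (Pml, Mefv, Cmya5, Mid1, Mid2 and Bspry), 0 were called by limma and 1 had an unadjusted p under 0.05. That gene was Pml, the scaffold of nuclear bodies, at 9.12 and 9.18 in WT and 9.47 and 9.35 in IfitmF-/- cells (change 0.26 ± 0.09 SE, adjusted p = 0.154).

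Trim10 and Trim58 are known from the red cell lineage, where Trim58 acts on dynein as the nucleus is lost. Neither was called, but both passed where dim probe sets were left out (adjusted p = 0.0437 and 0.0460), where only probe sets of 1 gene were tested (0.0375 and 0.0430) and where the probe sets of a gene were averaged (0.0382 and 0.0429). Trim10 was at 6.54 and 7.34 in WT and at 8.21 and 8.19 in IfitmF-/- cells, a change of 1.26 ± 0.28 (SE; adjusted p = 0.0720), and the WT arrays differed by more than most members changed. Trim58 was at 6.40 and 6.70 in WT and at 7.06 and 7.17 in IfitmF-/- cells (change 0.56 ± 0.13 SE, adjusted p = 0.0783). The 7 erythroid markers measured had the same order of arrays in part. Slc4a1, the anion exchanger of the red cell membrane, was at 9.24 and 11.19 in WT and at 12.01 and 11.78 in IfitmF-/- cells. In 5 of the 7 markers both IfitmF-/- arrays lay above both WT arrays, which 27.9% of all genes did. None of the 7 was called by limma, 1 having an unadjusted p under 0.05, and their median change was 1.24. Their summed linear intensity was 3173 and 5121 in WT against 8045 and 7135 in IfitmF-/- cells, while Alas2, the first enzyme of haem synthesis in these cells, was highest on the first WT array at 10.85. The part of red cell RNA in the Trim10 and Trim58 values was not tested. Trim69, Trim42 and Trim75, placed with these genes in a group of red cell, germ cell and embryo genes, were at or below 5.28 on every array, with changes from -0.29 to -0.03.

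**Figure D5:**
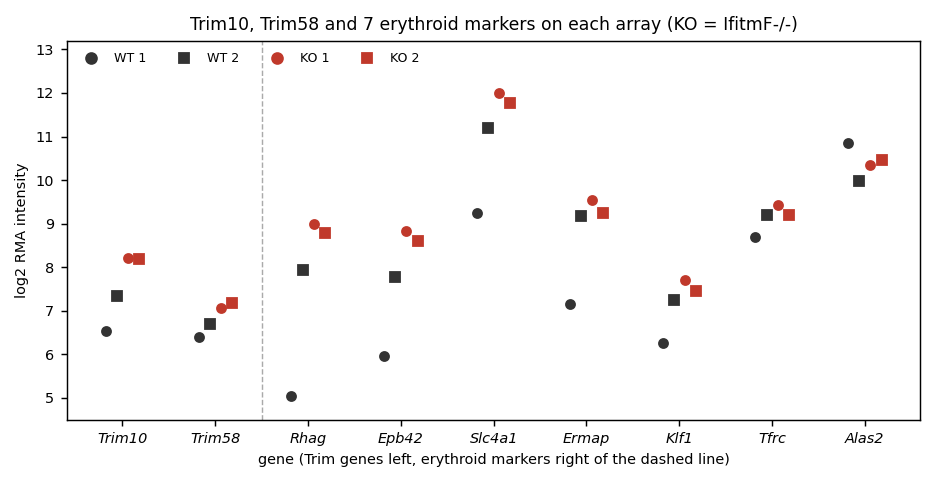
Log2 RMA intensity of Trim10, Trim58 and 7 erythroid markers on each array, WT in black and IfitmF-/- (KO) in red. In Trim10, as in Rhag, Epb42 and Slc4a1, the first WT array is lowest, the second lies between, and the IfitmF-/- arrays are highest, whereas Alas2 is highest on the first WT array.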

How the data were processed

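The deposited values were linear RMA intensities of each probe set, made by the authors with RMA and affy per the submitters' processing notes, whose versions are not given in the sources used here. Linear models of their log2 were fitted across 4 arrays and 34760 probe sets without a covariate by lmFit and eBayes (limma 3.58.1, R 4.3.3), with Benjamini-Hochberg adjustment. The number of arrays limits the precision. Gene names came from the platform annotation, and the highest-mean probe set stood for a gene. Levels were set against the median of all probe sets as a guide to detection. The rule for named genes took every called member, the 4 of highest mean in each role group, called partners, the 3 partners of smallest p in each list and the members nearest the threshold. The members, role groups and partner lists were chosen with earlier results of these data known. The script was tested on simulated data. Alternatives were another prior, other scaling, filters, probe set choices, the methods' t-test, a replicate block and leaving out each array. The labels call the replicates independent.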

Additional observations from a re-analysis of the deposited data

How the results depend on the processing

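The calls depend on the pooled spread of 4 arrays. The counts of TRIM genes called (12, of which 8 higher and 4 lower), of those past the study's thresholds (2), and of partners called in the TIF1 (4), innate (7) and conjugating enzyme (3) lists were each 0 with any array left out (range 0 to 0), with the replicate number as a block (smallest adjusted p among TRIM genes 0.0624), and by the methods' t-test after adjustment. Of all 34760 probe sets, 0 passed in each of the first 2 cases and 4 by the t-test, so these losses are not particular to the family. In each case the 12 kept their direction and an unadjusted p under 0.05. Same-numbered arrays deviated with a correlation of -0.12, so the numbers gave no pairing. With crossed numbers, a block added after seeing the data, 3 TRIM genes (2 higher, 1 lower), 1 TIF1 partner, 3 innate partners and 0 conjugating enzymes were called, among 975 of all 34760 probe sets. The methods' t-test without adjustment gave 22 TRIM genes (13 higher, 9 lower), 8 TIF1 partners and 7 conjugating enzymes, among 6811 of all 34760.

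Other settings added calls. With the trended and robust prior 13 TRIM genes were called (3669 of 34760 probe sets), Trim30a being added. Without dim probe sets 15 were called (4032 of 17380), the 11 called members tested there and Trim10, Trim58, Trim30a and Trim34a. With probe sets of 1 gene 15 were called (3037 of 21640), Trim10, Trim58 and Trim34a being added, and with the mean of all probe sets of a gene 16 (2790 of 19937), those 3 and Trim30a being added. In the last 2 settings 7 TIF1 partners were called. The cause was not tested. Median centring, which shifted the median change over all genes by 0.043, left Trim25 outside the threshold (adjusted p = 0.0580). Signs were followed only for the 28 members that the rule for named genes took. Among these 28, median centring turned the sign of Trim3 (0.032) and Trim42 (0.011), whose changes were smaller than that shift. With 1 array left out, 4 uncalled members among the 28 crossed 0: Trim3 (-0.046 to 0.024), Trim42 (-0.079 to 0.016), Trim54 (-0.22 to 0.26) and Trim47 (-0.17 to 0.019).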
